A study of Sus scrofa with 20 samples.

Results

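The genes described here build, crosslink and cut the extracellular matrix. They are the collagen chains, the laminin chains, elastin (ELN), fibronectin (FN1), the fibulins and fibrillin, the genes whose symbols start with LOX, the matrix metalloproteinases (MMP), their TIMP inhibitors, the ADAMTS and ADAMTSL families, and vimentin (VIM), an intermediate filament protein of mesenchymal cells. A gene was taken in by its symbol in the platform annotation, and each gene was represented by its probeset of highest mean. In all, 86 genes of 10638 with a symbol were found, with 151 of the 25092 probesets that held values, and 45 of the 86 had more than 1 probeset. Chains such as COL5A2, COL6A1 and COL7A1 and the protease MMP14 are not analysed here.

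Mucosa scraped from the ileum of Large White x Landrace pigs was measured on the snowball array, 1 array per pig, as log2 values. Residual feed intake (RFI) is the difference between the feed a pig eats and the intake predicted from its growth and body composition, and pigs from opposite ends of its range were paired by litter and sex. There were 10 low RFI pigs, labelled high in feed efficiency, and 10 high RFI pigs, labelled low. They came from 5 sows (1406, 1410, 1411, 1417 and 1435), and each sow gave 1 female and 1 male of either RFI group, so that every litter held 4 pigs and the arrays formed 10 litter-by-sex pairs. All pigs shared the cross and free access to feed, and intact litters were penned together, so that sow also stands for pen. Array medians lay between 4.98 and 5.07, and correlations between arrays lay between 0.948 and 0.974.

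As background, fibroblasts below the gut epithelium secrete fibrillar collagens, which assemble from 3 chains into a triple helix and are crosslinked by lysyl oxidases. Laminins and type IV collagen form the basement membrane on which the epithelium sits. Metalloproteinases cut these proteins, and TIMPs block the metalloproteinases. Scraped mucosa mixes epithelium, lamina propria and lymphoid tissue, and in such bulk samples fewer cells of a type and less RNA per cell cannot be told apart.

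The label of the group was checked against COL1A1, COL6A3, ELN, VIM and FBLN1 as markers of matrix and mesenchyme. All 5 had values on every array, but they did not move as 1 group. COL1A1 and VIM were highest in the litter of sow 1406, ELN was lowest there, and COL6A3 and FBLN1 did not pass the test between litters (p = 0.0864 and 0.185). The means of the 86 probesets ran from 1.42 for ADAMTS5 to 9.30 for VIM. Levels of different probesets do not order the transcripts, so all comparisons are within a probeset.

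**Figure D1:**
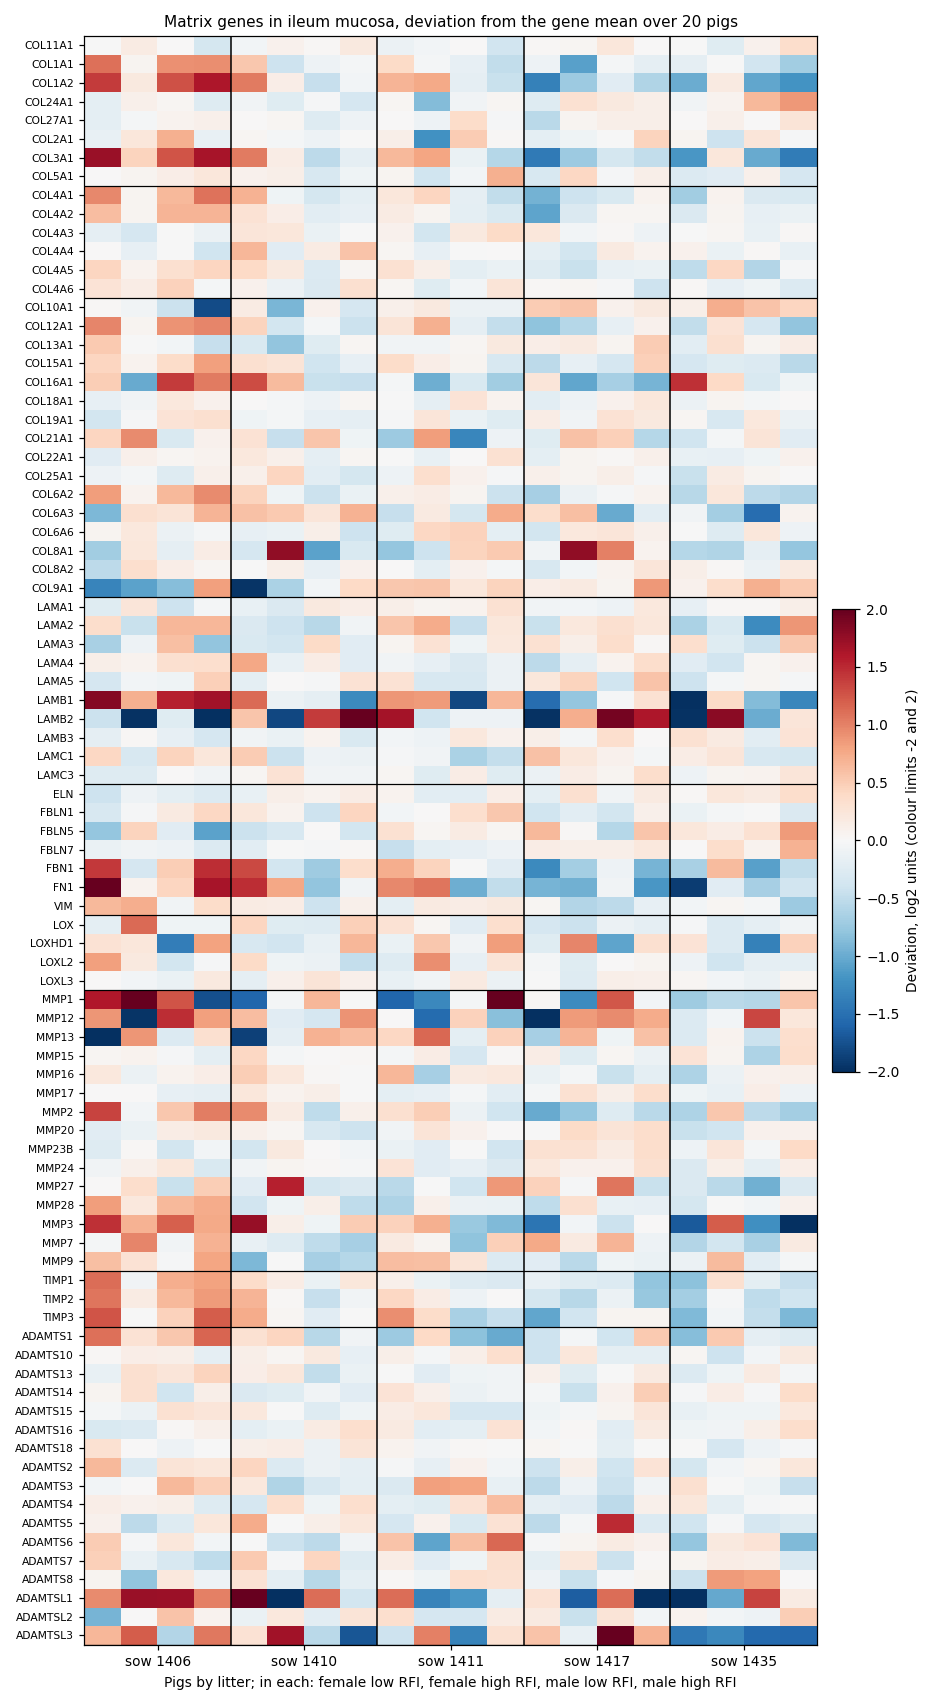
Deviation of each of the 86 genes (rows) from its own mean over 20 pigs, in log2 units, with 1 column per pig, ordered by litter. Rows follow fibrillar collagens, type IV collagens, other collagens, laminins, elastic fibre genes with FN1 and VIM, LOX names, metalloproteinases, TIMPs and ADAMTS genes from top to bottom. The 4 columns of sow 1406 are on average the highest for COL1A1, COL1A2, COL3A1, COL4A1, LAMB1 and the 3 TIMPs.

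The litters differed in these genes more often than in the array as a whole. Of the 82 genes with a mean over the 5% quantile, 28 (34.1%) had a p under 0.05 in limma's moderated F test over the 5 litters, against 12.8% of all 23837 probesets tested and 13.5% of the top probesets of all named genes. None passed after Benjamini-Hochberg adjustment over all probesets, where the smallest adjusted p of the genes was 0.111, for COL3A1, and 0.168% of all probesets passed. Of the 28, 21 had their highest mean in the litter of sow 1406, compared with 35.5% of all probesets at that p. Of these 21, 17 were lowest in litter 1417 or 1435. Over all probesets at that p, whichever litter was highest, 32.2% were lowest in litter 1417 and 17.6% in litter 1435. The share among the probesets highest in litter 1406 was not computed, so nothing particular to these genes is read from the 17. The median distance between the highest and the lowest litter mean of the 21 was 1.096 on the log2 scale, which is 2.14-fold, and it ranged from 0.73 to 2.41. In 13 of the 21 the 4 pigs of the highest litter lay above all 4 pigs of the lowest, as in 72.7% of the 1084 probesets of the whole array that had p under 0.05 and were highest in litter 1406, and nothing particular to these genes is read from it.

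The count rested on the litter of sow 1406. Without it, 11 of 82 genes (13.4%) had a p under 0.05, against 9.22% of all probesets. Leaving out its male high RFI pig alone gave 16 genes, and leaving out its female low RFI pig gave 18. Without the female high RFI pig of sow 1435, 1 gene, COL3A1, passed the adjusted p, at 0.0394. The 3 other pigs of litter 1406 often sat above its female high RFI pig, as COL3A1 shows.

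Among the 8 chains of the fibrillar collagen class, COL1A1, COL1A2 and COL3A1 differed between litters and COL2A1, COL5A1, COL11A1, COL24A1 and COL27A1 did not pass. COL3A1 (chr15:93556914-93595678, Sscrofa11.1), the single chain of type III collagen, had log2 values of 8.89, 7.61, 8.43 and 8.82 in litter 1406, given here and below in the order low and high RFI female, low and high RFI male. It had 8.21, 7.31, 6.64 and 6.996 in litter 1410, and 7.83, 7.96, 7.04 and 6.60 in litter 1411. The lowest litters were 1417, with 5.75, 6.45, 6.82 and 6.67, and 1435, with 6.01, 7.39, 6.17 and 5.78. Every pig of litter 1406 lay above every pig of the last 2 litters. The litter means were 8.44 ± 0.59 (SD, n = 4) in 1406 and 6.34 ± 0.72 (SD, n = 4) in 1435, a 4.29-fold distance. The p was 0.000729 in limma's fit over all 20 pigs and all probesets. COL3A1 kept its call without litter 1406, at p = 0.0495.

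COL1A2 (chr9:74174484-74210407), the second chain of type I collagen, followed the same order, from 7.99 ± 0.63 (SD, n = 4) in litter 1406 to 6.11 ± 0.63 in litter 1435, a 3.70-fold distance. It passed at p = 0.00114 in limma and kept its call without litter 1406, at p = 0.0366. COL1A1 (chr12:26379087-26397180), the first chain, had 4.51, 3.47, 4.32 and 4.35 in litter 1406 and 3.32, 2.33, 3.37 and 3.24 in litter 1417. In litters 1410, 1411 and 1435 its means were 3.41, 3.33 and 3.10. The litters 1406 and 1417 did not overlap (2.14-fold, limma p = 0.00186), but without litter 1406 the other litters did not differ at the threshold (p = 0.404).

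Of the 6 chains of type IV collagen, the sheet-forming collagen of basement membranes, COL4A1 and COL4A2 passed, both highest in litter 1406, and COL4A3 to COL4A6 did not. COL4A1 (chr11:76858332-76997409) had 6.88, 5.98, 6.57 and 7.01 in litter 1406 and 4.98, 5.52, 5.61 and 5.997 in litter 1417, so that the ranges of both litters overlapped by 1 pig from each. The p was 0.0126 in limma. It was 0.361 without the litter of sow 1406, 0.0549 without its female low RFI pig and 0.0592 without its male high RFI pig. COL4A2 ran from 6.07 ± 0.31 (SD, n = 4) in litter 1406 to 5.24 ± 0.52 in litter 1417, with no overlap. Its p was 0.0196 by limma.

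Among the 16 other collagens, COL6A2, a chain of the beaded filaments that link cells to fibres, COL12A1, which coats fibrils, and COL15A1, found beside basement membranes, were highest in litter 1406 as well. COL6A2 ran from 7.60 ± 0.40 (SD, n = 4) in litter 1406 to 6.61 ± 0.39 in litter 1435, with overlap. Its p was 0.0101 by limma, 0.497 without litter 1406 and 0.0536 without the male high RFI pig of that litter. COL10A1, a collagen of growth cartilage, went the other way: it had 6.503, 6.40, 6.04 and 4.70 in litter 1406 and 6.59, 7.21, 7.04 and 6.91 in litter 1435, with no overlap (p = 0.0231 by limma). COL9A1, another cartilage collagen, was also lowest in litter 1406, at 3.80 ± 0.97 (SD, n = 4), and highest in litter 1411, at 4.85 ± 0.15, with overlap.

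Of the 10 laminin chains 1 passed. LAMB1 (chr9:107670120-107747242), a beta chain of many basement membranes, had 7.24, 6.10, 6.95 and 7.08 in litter 1406 and 3.31, 5.79, 4.53 and 4.09 in litter 1435. All 4 pigs of litter 1406 lay above all 4 of litter 1435, and the distance of the means was 5.32-fold (p = 0.0180 by limma), the widest of the 21 genes highest in litter 1406. The middle litters were spread widely, as in litter 1411 with 6.28, 6.26, 3.58 and 6.07. The gamma chain LAMC1 (p = 0.148), the chains LAMA3 (p = 0.503) and LAMB3 (p = 0.147) of the epithelial laminin that anchors cells to the membrane, and LAMA5 (p = 0.464) did not pass. LAMB2 had the largest SD of the 86 genes, 1.55, with values from 0.78 to 6.07 and p = 0.311 between litters.

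Among the 7 elastic fibre, fibronectin and vimentin genes 5 passed, in both directions. FN1, the adhesive glycoprotein that cells bind through integrins, ran from 7.07 ± 0.99 (SD, n = 4) in litter 1406 to 5.20 ± 0.76 in litter 1435, a 3.66-fold distance. Its p was 0.0238 by limma. FBN1, the microfibril protein on which elastin is laid down, and VIM were also highest in litter 1406 (p = 0.0466 and 0.0295), both with overlap of the highest and the lowest litter. ELN (chr3:11214194-11245891), the elastic core itself, had 5.36, 5.66, 5.58 and 5.4985 in litter 1406 and 5.79, 5.99, 5.95 and 6.12 in litter 1435. Here litter 1406 was lowest, with no overlap, over a distance of 1.35-fold (limma p = 0.0200). FBLN7, a fibulin, was highest in litter 1435 (p = 0.00378), but the mean of its probesets gave p = 0.830.

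**Figure D2:**
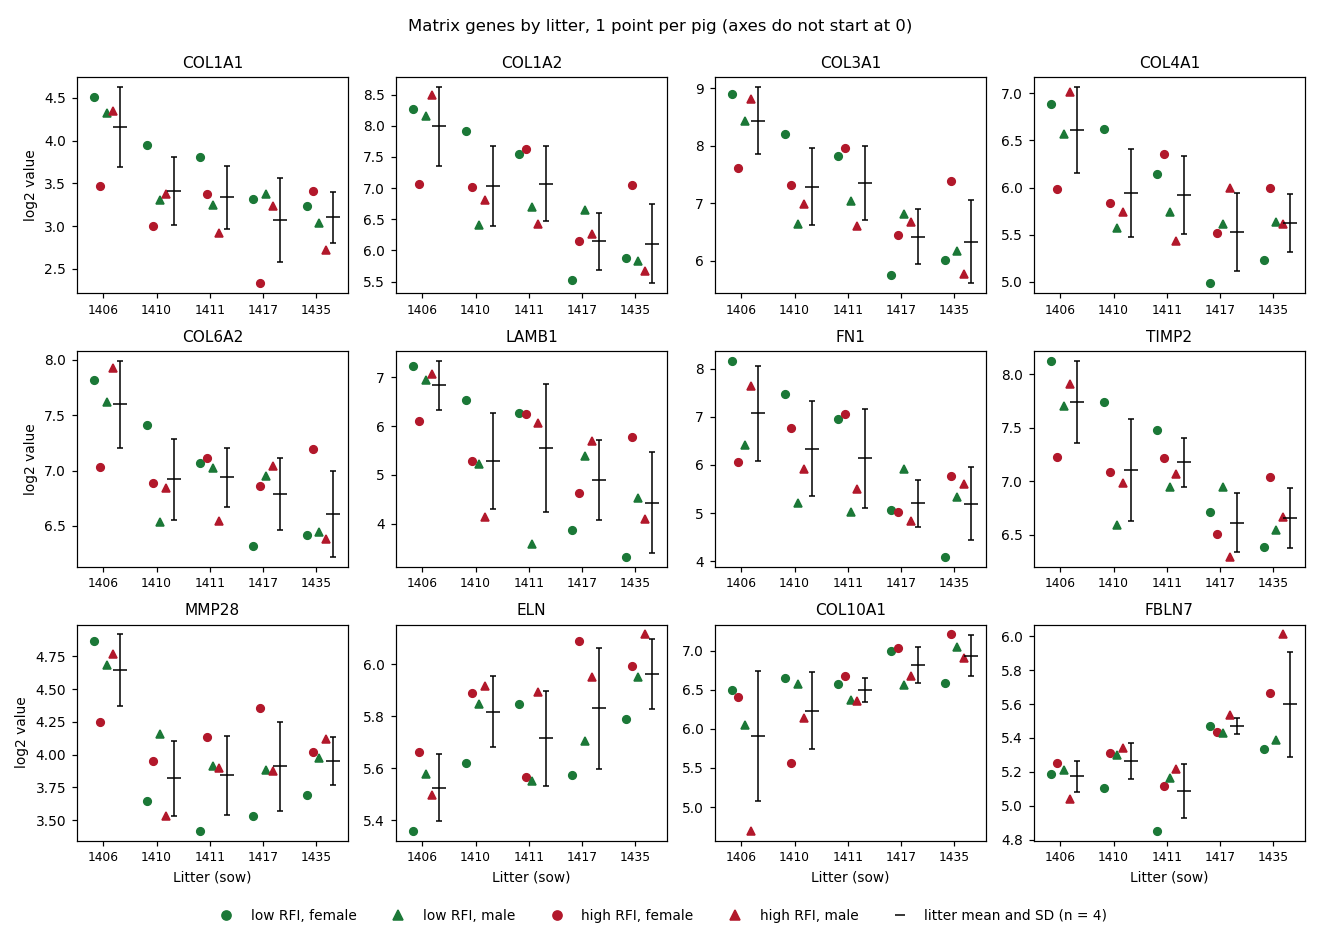
Log2 values of 12 genes by litter, 1 point per pig, with circles for females, triangles for males, green for low RFI and red for high RFI, and the litter mean and SD (n = 4) in black. COL1A1, COL1A2, COL3A1, COL4A1, COL6A2, LAMB1, FN1, TIMP2 and MMP28 are highest in litter 1406, and ELN and COL10A1 are lowest there.

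Of the 15 metalloproteinases, 7 differed between litters. MMP2, a gelatinase that cuts type IV collagen, had 7.04, 5.64, 6.24 and 6.73 in litter 1406 and 4.69, 4.93, 5.44 and 5.16 in litter 1417. Both litters did not overlap, with means 2.57-fold apart (p = 0.0132 by limma). MMP3, or stromelysin, ran from 6.33 ± 0.36 (SD, n = 4) in litter 1406 to 4.30 ± 1.54 in litter 1435, with overlap. Its p was 0.0311 by limma.

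MMP28, or epilysin, stood out in litter 1406 alone, with 4.87, 4.25, 4.69 and 4.77 there and means between 3.82 and 3.95 in the 4 other litters (p = 0.00302 by limma, and 0.886 without litter 1406). MMP9, the other gelatinase, was lowest in litter 1410, at 6.02 ± 0.38 (SD, n = 4). It passed at p = 0.00613 by limma and lost its call without that litter (p = 0.0718). MMP7, the matrilysin of epithelial cells, was also highest in litter 1406 (p = 0.0267 by limma), but only just. Its mean was 2.957 there and 2.947 in litter 1417. MMP23B and MMP17 were highest in litter 1417, over distances of 1.39-fold and 1.26-fold, and MMP23B had p = 0.155 without that litter. The collagenases MMP1 and MMP13 and the macrophage elastase MMP12 did not pass.

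All 3 TIMPs passed, all with their highest mean in litter 1406. TIMP2 (chr12:3254794-3300835), which both blocks MMP2 and takes part in its activation, had 8.13, 7.22, 7.71 and 7.91 in litter 1406 and 6.71, 6.51, 6.95 and 6.29 in litter 1417. No pig of litter 1417 reached the lowest pig of litter 1406, and the means were 2.18-fold apart (p = 0.00103 by limma, and 0.0537 without litter 1406). TIMP1 ran from 7.24 ± 0.51 (SD, n = 4) in litter 1406 to 6.24 ± 0.29 in litter 1417. Its p was 0.00516 by limma and 0.143 without litter 1406. TIMP3, which binds to the matrix, ran from 6.32 ± 0.61 (SD, n = 4) to 5.01 ± 0.40 in litter 1435. Its p was 0.0272 by limma.

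Of the 17 ADAMTS and ADAMTSL genes, secreted proteases and their relatives without protease activity, 16 were tested and 2 passed. ADAMTS1, which cuts proteoglycans, was highest in litter 1406, at 4.66 ± 0.43 (SD, n = 4), and lowest in litter 1411, at 3.35 ± 0.63, with overlap. Its p was 0.00885 by limma and 0.291 without litter 1406. ADAMTSL3 was lowest in litter 1435, where all 4 pigs were close together at 1.51 ± 0.13 (SD, n = 4), and highest in litter 1417, at 4.02 ± 1.42. None of the 3 LOX names tested between litters passed.

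Second probesets bore on some of these calls. Of the 18 called genes with more than 1 probeset, 9 had another probeset with p under 0.05, and all 9 were highest in litter 1406. Among the called genes highest in another litter none had such support. The other probesets of COL10A1 (r = 0.30), FBLN7 (-0.07) and ADAMTSL3 (-0.15 and 0.29) did not pass, and that of COL9A1 (0.34) was not tested. The other probeset of MMP2 correlated with the first at r = 0.95, that of VIM at 0.94, that of FN1 at 0.85 and that of LAMB1 at 0.79, all over 20 pigs. The other probesets of TIMP3 (r = -0.08), ELN (0.27), COL3A1 (0.35) and ADAMTS1 (0.50) did not pass. Nor did the 2 others of MMP7, which correlated negatively with the first (r = -0.61 and -0.18). COL4A4, COL5A1 and LAMA4 did not pass with their first probeset but had another that did.

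Genes that work with the matrix were read from lists that hold none of the genes above except FBLN1 and FBLN5. Of 8 small leucine-rich proteoglycans, which bind collagen fibrils and set their width, 5 had a p under 0.05 between litters, BGN, DCN, FMOD, LUM and PRELP, each highest in litter 1406. DCN, decorin, had litter means of 7.76, 6.65, 6.40, 5.83 and 5.495 in the order of the sow numbers. Of 14 collagen folding and processing genes 4 passed, among them SERPINH1, the collagen chaperone, with 7.25 in litter 1406 and 5.71 in litter 1417. SEC23A, a coat protein of the vesicles that leave the endoplasmic reticulum, was the 1 of the 4 that was lowest in litter 1406.

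Of 11 matricellular proteins 3 passed (SPARC, SPARCL1 and THBS1) and of 18 other matrix proteases and inhibitors 5 passed (A2M, ADAM19, HTRA1, PLAU and PLAUR), all of them highest in litter 1406. SPARC, a collagen-binding glycoprotein, went from 9.38 in litter 1406 to 7.11 in litter 1417. Of 22 collagen and laminin receptors 5 passed, in different directions, of 6 basement membrane partners 2, of 8 elastic fibre partners 2, and of 8 TGF-beta signalling genes 0. SPARC is counted again among the basement membrane partners that passed. The background for these counts is the 12.8% of all probesets given above.

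Markers of cell types were compared between litters as well, again beside the 12.8% of all probesets. In these short lists, 1 passing marker is not read as a shift of its cell type. Of 5 fibroblast markers 4 had a p under 0.05, DCN, DPT, LUM and PDGFRA, all highest in litter 1406. DCN and LUM are the same probesets already counted among the small leucine-rich proteoglycans, so they add no separate evidence. A score, the mean deviation of the markers from their own means in log2 units, was 1.11 in litter 1406 (0.46 to 1.42 over 4 pigs), 0.27 in 1410, 0.01 in 1411, -0.69 in 1417 (-1.10 to -0.36) and -0.69 in 1435 (-1.27 to 0.22). Of 8 smooth muscle markers 2 passed, DES and TAGLN, both highest in litter 1406. The score was 0.25 in litter 1406 (-0.08 to 0.52) and -0.19 in litter 1435 (-0.34 to 0.01). The list did not move as 1 group. LMOD1 was lowest in litter 1406 (3.71), and TPM2 was highest in litter 1417 (5.85, against 4.57 in litter 1406). Neither passed, nor did ACTA2, MYH11, MYLK and SMTN. Of 4 endothelial markers 2 passed, CDH5 and PECAM1, and of 8 epithelial markers 1 (KRT18), all 3 highest in litter 1406. The endothelial score was 0.34 in litter 1406 and -0.18 in litter 1417, and the epithelial score 0.12 in litter 1406 and -0.12 in litter 1435. Of 4 T cell markers 1 passed, CD3G, which was lowest in litter 1406 (9.21) and highest in litter 1435 (9.71), and the T cell score was -0.10 in litter 1406 and 0.18 in litter 1417. Of 4 markers of glia and neurons 1 passed (S100B, highest in litter 1417), and 0 of 4 B cell and 0 of 2 macrophage markers did.

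With the smooth muscle score as a covariate 12 of 82 matrix genes passed between litters, against 9.29% of all probesets, and with the epithelial score 14 passed, against 7.90%. With the fibroblast score, a fit added after the values were seen, 7 passed (8.54%), against 6.21% of all probesets. In that fit COL3A1, COL1A2, COL1A1 and TIMP2 had p = 0.103, 0.151, 0.420 and 0.612, while MMP28 and MMP9 kept their calls at p = 0.0288 and 0.00459. The fibroblast score holds DCN and LUM, which are matrix genes themselves, and 4 of its 5 markers differed between these same litters. Its fit therefore cannot separate fibroblast content from the expression of matrix genes. The smooth muscle score (DES and TAGLN) and the epithelial score (KRT18) also hold markers that differed between these litters. Their fits can therefore take up litter differences as well. The part of fibroblast, smooth muscle or epithelial content in the litter differences was not tested, and litter and pen cannot be told apart.

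**Figure D3:**
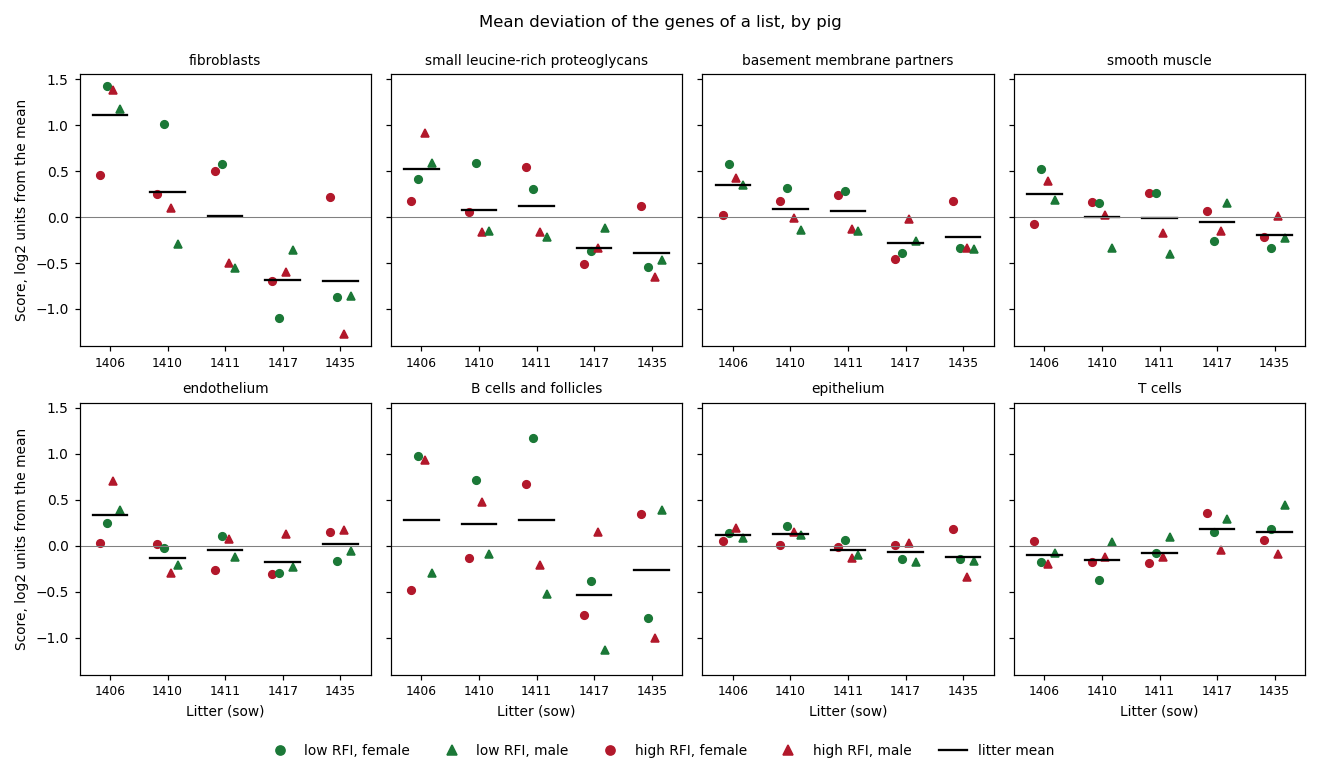
Score of 8 gene lists by litter, 1 point per pig, as the mean deviation of the list's genes from their own means over 20 pigs (log2 units), with black bars for litter means. The fibroblast score goes from 1.11 in litter 1406 to -0.69 in litters 1417 and 1435, and the epithelial score from 0.12 in litter 1406 to -0.12 in litter 1435.

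The share of a gene's sum of squares that lay between litters had a median of 27.8% over the 86 genes, against 23.7% over all 25092 probesets. The share between RFI groups was 2.23% against 2.19%, and that between sexes 3.19% against 3.16%. By role, the median litter share was 58.0% for the TIMPs, 47.0% for elastic fibre genes, fibronectin and vimentin, 37.8% for the type IV collagens, 37.8% for the metalloproteinases, 29.7% for the fibrillar collagens, 28.1% for the other collagens, 25.5% for the laminins, 21.4% for the ADAMTS and ADAMTSL genes and 12.8% for the LOX names. With 5 litters a share of the sum of squares above 0 arises in any gene, so that these values are read beside the median of all probesets.

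**Figure D4:**
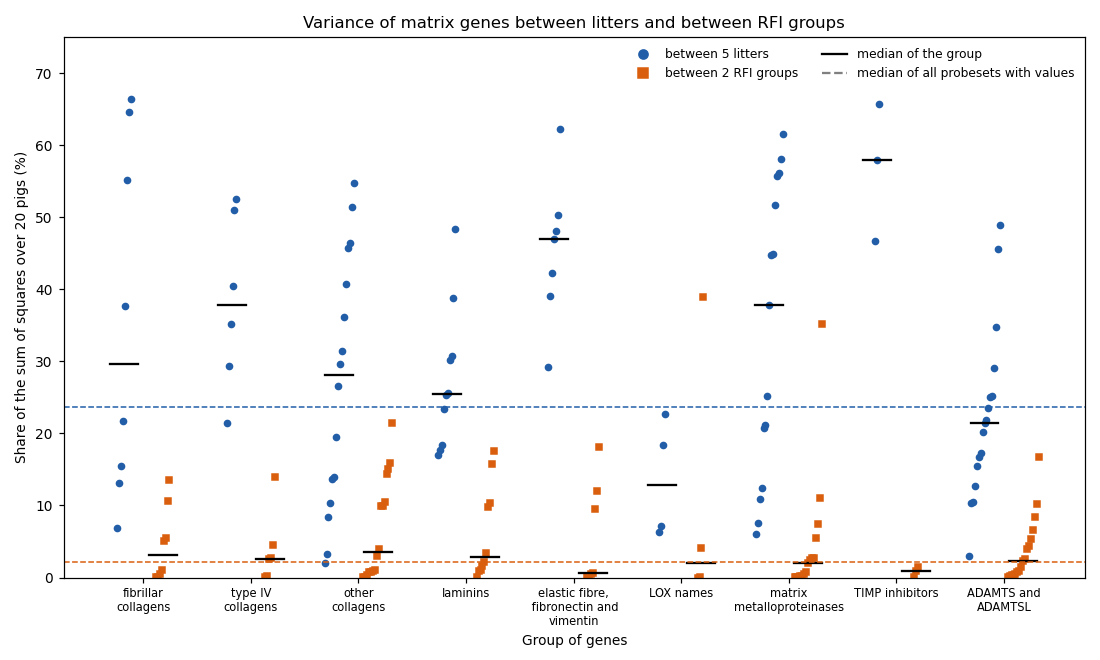
Share of the sum of squares over 20 pigs that lay between litters (blue circles) and between RFI groups (orange squares), 1 point per gene, by role. Black bars are medians of a role and dashed lines the medians of all probesets with values, 23.7% for litters and 2.19% for RFI.

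Partner genes were compared over the 20 pigs. Some pairs are chains of a trimer or an enzyme with its inhibitor. The pairs of COL1A1 with COL3A1, COL1A1 with VIM and ELN with FBN1 are neither. Of 12 pairs chosen as partners, 8 were measured. COL4A1 and COL4A2 correlated at Pearson r = 0.92 (Spearman rho = 0.94), MMP2 and TIMP2 at 0.91 (rho = 0.89), COL1A1 and COL1A2 at 0.83 (rho = 0.83) and COL1A1 and COL3A1 at 0.83 (rho = 0.83). Each had a two-sided permutation p of 1e-05 for both coefficients, the smallest that 100000 resamples can give, and 2e-05 after adjustment over the 8 pairs. For these and the pairs below, the 20 pigs were permuted freely although littermates are siblings, which can make the p too small. Without the 2 pigs farthest from the median of the first gene r was 0.88, 0.85, 0.83 and 0.82 in the same order. The pairs share array, litter and tissue piece. Within litters, on deviations from the litter mean, r was 0.84, 0.85, 0.66 and 0.63, with adjusted permutation p of 8e-05, 8e-05, 0.00413 and 0.00628. Here and below, the 20 deviations were permuted across litters and not within them. This ignores the degrees of freedom taken by the litter means and can make these p too small.

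The other pairs were weaker. ELN and FBN1 correlated at r = -0.52 (rho = -0.46), with adjusted permutation p of 0.0270 and 0.0649, but r was -0.26 within litters (adjusted permutation p = 0.360) and -0.29 without the 2 farthest pigs. COL1A1 and VIM had r = 0.54 (rho = 0.45), with adjusted permutation p of 0.0215 and 0.0669, but 0.10 within litters (adjusted permutation p = 0.664) and 0.30 without the 2 farthest pigs. Neither relation passed within litters, and the difference between these coefficients was not tested. LAMB1 and LAMC1 (r = 0.32, adjusted permutation p = 0.187) and LAMA5 and LAMC1 (r = 0.10, adjusted permutation p = 0.679) did not pass, although their products join in laminin trimers.

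Between the RFI groups few of these genes differed. After the filter of the methods, which leaves out low means and high SDs, 69 of the 86 were tested. With an unadjusted p under 0.05 in limma with RFI group and sow, 1 was higher in low RFI pigs (COL1A1), against 1.44% of all 22136 probesets tested, and 3 were lower (COL6A3, ELN and LOXHD1), against 2.59%. None passed after adjustment (smallest adjusted p 0.999824 among these genes and 0.286 among all probesets). The log2 fold change of low against high RFI was positive in 30 of the 69, with a median of -0.02 against -0.01 over all probesets. Without the litter of sow 1406, 7 genes passed, 1 higher and 6 lower. No gene had a second probeset that passed.

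COL1A1 in low RFI pigs had log2 values from 3.03 to 4.51 with a median of 3.35, and in high RFI pigs from 2.33 to 4.35 with a median of 3.30. The groups overlapped widely, and the low RFI pig was the higher in 7 of 10 pairs. The log2 fold change was 0.39 ± 0.15 (SE), with p = 0.0166 and adjusted p = 0.999824 by limma. Without the sow in the fit p was 0.0825, and with the sow as a random block it was 0.0666. COL1A2, which was left out of the test for its SD, had a log2 fold change of 0.03, and COL3A1 of 0.02.

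The difference between COL1A1 and COL1A2 in their RFI differences, a contrast chosen after the values were seen, was 0.36 ± 0.56 (SD, 10 pairs), positive in 8 of 10 pairs. The exact permutation p (two-sided, signs of the pairs) was 0.0488, and 0.115 after adjustment over 3 such contrasts. The contrast of COL1A1 with COL3A1 was 0.37 ± 0.63 (exact permutation p = 0.0879), and that of COL6A3 with COL6A2 was -0.56 ± 1.01 (exact permutation p = 0.115). None of the 3 passed after adjustment.

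COL6A3 (chr15:137011549-137103687), a chain of type VI collagen, ran from 2.87 to 4.99 with a median of 4.19 in low RFI pigs and from 3.71 to 5.14 with a median of 4.82 in high RFI pigs. The low RFI pig was the lower in 8 of 10 pairs, and the groups overlapped. The log2 fold change was -0.58 ± 0.21 (SE), with p = 0.0133 by limma, and -0.51 with p = 0.0601 without the litter of sow 1411. COL6A2, the other measured chain of that trimer, had a log2 fold change of -0.02.

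ELN ran from 5.36 to 5.95 with a median of 5.66 in low RFI pigs and from 5.4985 to 6.12 with a median of 5.91 in high RFI pigs, and was the lower in low RFI in 8 of 10 pairs. The log2 fold change was -0.18 ± 0.08 (SE), with p = 0.0343 by limma. This call was fragile. When the pairs of a litter and sex were the block, p was 0.0606, without the litter of sow 1410 it was 0.0728, without 1417 it was 0.178 and without 1435 it was 0.0770, and it was lost without any 1 of 11 pigs (p from 0.0513 to 0.0716).

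LOXHD1 (chr1:96080751-96287034) enters by its symbol only: it is known from the hair cells of the inner ear and is no lysyl oxidase. It ran from 4.23 to 5.90 with a median of 5.42 in low RFI pigs and from 5.22 to 6.59 with a median of 6.11 in high RFI pigs. The low RFI pig was the lower in 7 of 10 pairs, and the log2 fold change was -0.83 ± 0.24 (SE), with p = 0.00236 by limma. Its p stayed under 0.05 in 15 other settings and without each of the 5 litters and the 20 pigs. The lysyl oxidase relatives LOXL2 and LOXL3 had log2 fold changes between -0.0021 and 0.0022, and LOX itself was left out for its low mean.

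**Figure D5:**
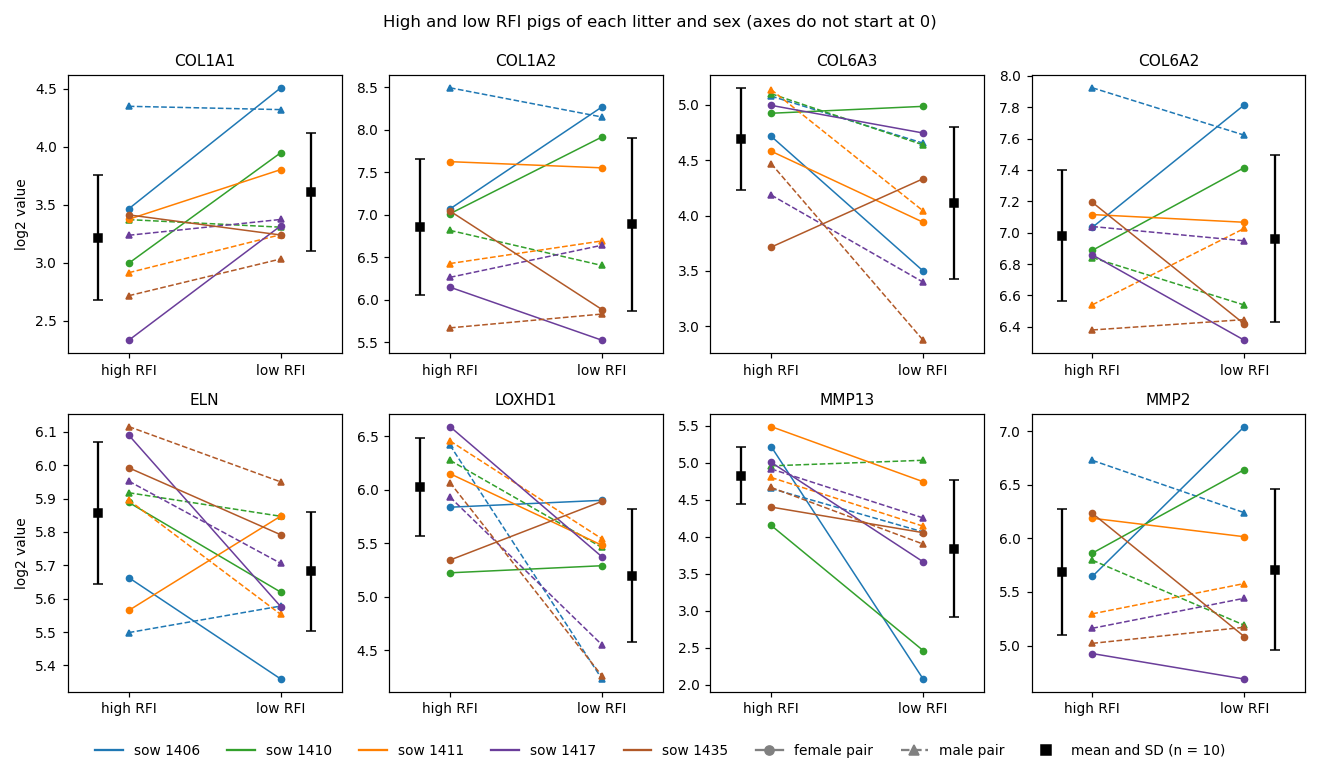
Log2 values of 8 genes in the high and low RFI pig of each litter and sex, joined by a line (colour for the sow, solid for females, dashed for males), with the mean and SD of 10 pigs per group in black. COL6A3 and ELN are lower in the low RFI pig in 8 of 10 pairs and MMP13 in 9 of 10, while the lines of COL1A2, COL6A2 and MMP2 cross.

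The filter bears on the RFI count, since it took out 13 of the 86 genes for their SD alone, among them COL1A2, COL3A1, FBN1, FN1, LAMB1 and the proteases MMP1, MMP3, MMP12 and MMP13, and 4 for their mean (ADAMTS5, COL16A1, COL8A1 and LOX). Without any filter 3 genes were higher and 4 lower. The additions were ADAMTSL1 (log2 fold change 1.18, p = 0.0411) and COL16A1 (0.63, p = 0.0454) on the higher side and MMP13 on the lower. MMP13, collagenase 3, ran from 2.08 to 5.03 with a median of 4.06 in low RFI pigs and from 4.15 to 5.49 with a median of 4.86 in high RFI pigs. In 9 of 10 pairs the low RFI pig had the lower value, with a log2 fold change of -0.99 ± 0.30 (SE) and p = 0.00431 by limma (adjusted p = 0.999818). The widest pair difference, -3.14, came from the females of sow 1406.

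Of 80 partner genes tested between RFI groups, at an unadjusted limma p under 0.05, 0 were higher in low RFI pigs and 3 were lower (3.75%), near the 1.44% and 2.59% of all probesets given above. THBS3, a thrombospondin, had the lower value in the low RFI pig of each of the 10 pairs, with a log2 fold change of -0.28 ± 0.08 (SE, limma p = 0.00300). ITGA10, a collagen-binding integrin chain, was lower in 9 of 10 pairs (-0.23 ± 0.09, p = 0.0158). TGFBR3, a TGF-beta co-receptor, was lower in 7 of 10 (-0.29 ± 0.12, p = 0.0313). The smooth muscle actin ACTA2 was lower in 8 of 10 (-0.62 ± 0.25, p = 0.0254), the 1 marker of 6 tested of that tissue that passed. The smooth muscle score was -0.03 in low RFI pigs (-0.40 to 0.52) and 0.03 in high RFI pigs (-0.22 to 0.39), and the fibroblast score 0.02 (-1.10 to 1.42) and -0.02 (-1.27 to 1.38). With either score as a covariate COL1A1, COL6A3, ELN and LOXHD1 kept their calls.

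Sex was compared with RFI group and sow in the fit. Of the 82 genes, 3 were higher in males, against 4.19% of all probesets, and 0 were lower, against 3.14%. COL9A1 was at 4.72 ± 0.51 (SD, n = 10) in males and 4.09 ± 0.88 in females (p = 0.0107 by limma), COL18A1, a basement membrane collagen, at 7.32 ± 0.12 and 7.15 ± 0.09 (p = 0.0250), and ADAMTS16 at 4.34 ± 0.20 and 4.11 ± 0.14 (p = 0.0170). None passed after adjustment (smallest adjusted p 0.631).

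The RFI difference itself differed between the sexes in 2 of 69 genes, against 6.06% of all probesets. In LOXHD1 the log2 fold change was -1.42 in males and -0.24 in females (difference -1.18 ± 0.39 (SE), limma p = 0.00862). All 5 male pairs were lower in low RFI, and 2 of 5 female pairs were. In COL6A6, a further type VI chain, it was 0.32 in males and -0.24 in females (difference 0.56 ± 0.20 (SE), limma p = 0.0147). Neither passed after adjustment (adjusted p 0.784).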

How the data were processed

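The 20 arrays were processed by the authors, who assigned probes to probesets with a layout from Sscrofa11.1 and applied robust multichip averaging. The deposited unit is log2. The submitters' notes name GCOS 1.1.1. Of 47845 rows 25092 held values. Symbols came from the platform annotation, which can differ from the authors' layout, and coordinates from RefSeq (Sscrofa11.1, 86 of 86 genes).

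Fits used R 4.3.3 and limma 3.58.1 (lmFit and eBayes, 14 residual and 4.42 prior degrees of freedom), and Python 3.11.15 with numpy 2.4.6, scipy 1.17.1 and matplotlib 3.10.9. RFI was fitted with the sow after the methods' filter (leaving out means below the 5% quantile and SDs above the 95% quantile of either RFI group, 22136 probesets left). Litters (moderated F) and sex were fitted with the mean filter alone (23837 probesets), because the SD filter removes probesets for varying. Calls used the methods' unadjusted p under 0.05, beside the Benjamini-Hochberg p over all probesets. The slaughter batch of the methods' model is not in the labels and was left out.

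The genes and lists were chosen with earlier results of these data known. Named genes were the main chains, proteases and inhibitors, all genes passing for RFI, sex or their interaction, the 12 of smallest litter p, and those of extreme mean or SD. Labels give the litter, so the 4 pigs of a sow are siblings. Deviations from the RFI group means correlated between pair mates at a median of 0.0836, with 4 of 10 pairs over 0.1. Alternatives were other filters, eBayes settings, array weights, normalizations, the mean of a gene's probesets, marker scores as covariates, other sow terms, and leaving out each pig or litter. Scripts were tested on simulated data. The number of arrays limits the precision.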

Additional observations from a re-analysis of the deposited data

Results flagged for a closer look

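Of 102 groups tested in 21 genes, 6 held a pig far from the others, measured as its gap to the nearest pig over the range of the group. Chance gives such a pig in about 1 in 20 groups. COL6A2 held 3 of the 6: the male high RFI pig of sow 1406 was the highest of the 10 high RFI pigs (7.92, the next at 7.19, ratio 0.473), the male high RFI pig of sow 1411 was the lowest of its litter (6.54, ratio 0.847), and the female high RFI pig of sow 1435 was the highest of its litter (7.19, ratio 0.919). The same female was the highest of her litter in COL1A2 (7.04, the next at 5.88, ratio 0.843). In COL1A1 the female high RFI pig of sow 1417 was the lowest of her litter (2.33, the next at 3.24, ratio 0.869), and in FBLN7 the female low RFI pig of sow 1410 was (5.10, ratio 0.831).

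The RFI difference was called unlike in males and females for COL6A6 (males minus females 0.56 on the log2 scale) and LOXHD1 (-1.18), by the interaction term of limma without adjustment. These were 2 of 69 genes, no more than the 6.06% of all probesets called. Neither passed after adjustment (smallest adjusted limma p 0.784). COL6A6 was higher in low RFI in males and lower in females, and LOXHD1 was lower in all 5 male pairs and in 2 of 5 female pairs.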

How the results depend on the processing

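The count of genes differing between RFI groups was 4. It became 7 without any filter and 2 both without the sow term and with the sow as a random block, and lay between 3 and 7 when a litter and between 3 and 6 when a pig was left out. The highest came without the litter of sow 1406. With pair mates of a litter as block it was 3, ELN being lost, and the block changed no other call of a named gene. The 28 genes differing between litters became 12 with the smooth muscle score, 14 with the epithelial score and 7 with the fibroblast score as covariate, and lay between 11 and 26 with a litter left out and between 16 and 28 with a pig left out. The methods' filter gave 19 of 69 genes. The genes differing between sexes rose from 3 to 5 after renewed quantile normalization. Within litters the correlation of ELN and FBN1 was -0.26 and that of COL1A1 and VIM 0.10. The cause of these shifts was not tested. No called value reversed its direction under the settings run. With 4 pigs a litter and no slaughter batch in the labels, litter and pen cannot be told apart, and the batch was not tested.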
